A study of Mus musculus with 15 samples.

Results

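The genes of the MHC-II enhanceosome were examined in RNA sequencing libraries of A20 cells and of 4 Foxp1 CRISPR clones. The genes, 10 of the 41388 counted, were chosen by name for their role in MHC-II transcription. They are the coactivator *Ciita*, the RFX subunits *Rfx5, Rfxap* and *Rfxank*, the NF-Y subunits *Nfya, Nfyb* and *Nfyc*, the factor *Creb1*, and the target genes *Cd74* and *H2-Aa*. A20 is a B-cell lymphoma line of the BALB/c strain, and total RNA was sequenced from its wild-type parental cells and from clones E6.1 and E6.2, mutated in exon 6 of *Foxp1*, and E7.1 and E7.2, mutated in exon 7. The 5 lines, all grown untreated in culture, had 3 libraries each from separate passages, 15 in all. Each clone was grown from a single cell that had received Cas9 and a guide RNA from a plasmid, so that the *Foxp1* mutation and other properties of that cell cannot be told apart within a clone. The study followed MHC-II at the cell surface after loss of Foxp1, and the comparisons below ask whether the transcripts of the MHC-II transcription machinery, and of 2 of its targets, differed between the lines.

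MHC-II genes share a promoter module in which the X1, X2 and Y boxes lie in a fixed order. The RFX complex binds the X1 box, CREB1 binds the X2 box, which resembles a cyclic AMP response element, and the trimer NF-Y binds the Y box. CIITA does not bind DNA itself but docks on these factors and recruits chromatin-modifying and elongation factors, and its amount usually sets how much MHC-II a cell makes. In B cells *Ciita* is expressed constitutively and is silenced when the cells become plasma cells. RFX, NF-Y and CREB1 are by contrast made in most cell types and regulate many other genes.

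The promoter of *H2-Aa* is shown because it holds, in one place, the letters that the factors of this set recognize. Promoter sequences were taken from RefSeq (GRCm38.p6, the C57BL/6J reference and not BALB/c), from 250 bases before to 50 bases after the transcript start, for 7 of the 10 genes. *Ciita, Rfxap* and *Cd74* had no entry. Capitals mark, on either strand, the Y box core CCAAT, which reads ATTGG on the other strand, the cyclic AMP response element TGACGTCA, and a half-site of RFX binding, GCAAC. These motifs were chosen with the sequences in view. The *H2-Aa* window lies at chr17:34287774-34288073 on the reverse strand and the *Creb1* window at chr1:64532554-64532853 on the forward strand.
H2-Aa: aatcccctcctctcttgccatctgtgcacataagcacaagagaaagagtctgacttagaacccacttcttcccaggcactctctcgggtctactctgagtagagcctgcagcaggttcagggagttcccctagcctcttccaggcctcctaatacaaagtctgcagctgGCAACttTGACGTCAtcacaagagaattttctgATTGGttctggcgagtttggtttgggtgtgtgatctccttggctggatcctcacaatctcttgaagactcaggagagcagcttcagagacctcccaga
Creb1: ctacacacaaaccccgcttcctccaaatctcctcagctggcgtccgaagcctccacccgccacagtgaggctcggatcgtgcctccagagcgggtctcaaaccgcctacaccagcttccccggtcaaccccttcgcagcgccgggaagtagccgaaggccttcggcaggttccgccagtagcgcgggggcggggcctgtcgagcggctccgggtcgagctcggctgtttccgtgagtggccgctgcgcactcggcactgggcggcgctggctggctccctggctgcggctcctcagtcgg
In the *H2-Aa* window, with the first transcribed base as 0, GCAAC lay from -81 to -77, TGACGTCA from -74 to -67 and the Y box core, on the opposite strand, from -48 to -44. The motifs did not overlap. Of the 32851 promoter windows in the table, 37.4% held CCAAT, 35.2% held GCAAC and 1.79% held TGACGTCA. *Creb1* is shown as the factor gene with the largest difference between the lines, and its window held none of these 3 motifs. The *Rfx5* window, at chr3:94953858-94954157 on the forward strand, held CCAAT from -113 to -109 and from -54 to -50, the latter 2 bases after a GCAAC from -61 to -57. CCAAT was also found in the window of *Rfxank*, in 1 of the 3 windows of *Nfya* and in 2 of the 3 windows of *Nfyc*, but in neither *Nfyb* nor *Creb1*. Such matches describe the letters only.

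The libraries held from 26328054 to 39181530 counted read pairs. The targeted gene *Foxp1* was at 138.3 ± 32.7 CPM (counts scaled to a library of 1000000 read pairs, normalized by TMM; SD, n = 3) in parental cells, at 103.8 ± 4.6 in E6.1 and 105.9 ± 2.38 in E6.2, and at 56.8 ± 13 in E7.1 and 43.0 ± 8.19 in E7.2. All 10 B-cell markers examined were above 1 CPM in every line, including *Cd79a, Cd79b* and *Ms4a1*, whereas *Cd3e* and *Cd8b1* of T cells had a count of 0 throughout. The summed level of 6 T-cell markers was at most 2.22 CPM, that of 6 myeloid markers at most 8.16 CPM and that of 6 dendritic cell markers, nearly all *Flt3*, at most 98.7 CPM. A summed plasma cell list, led by *Jchain*, ranged from 1025.3 CPM in an E6.2 library to 2367.4 CPM in an E7.2 library. Replicate 3 of E6.2 and replicate 3 of E7.2 stood apart from the other libraries. In both, the level relative to the mean of all libraries fell by 0.077 on the log2 scale for each doubling of a gene's exonic length, while the slopes of the other 13 libraries lay between -0.009 and 0.063. The 100 most abundant genes took 34.3% of the counts in E7.2 replicate 3 and 31.5% in E6.2 replicate 1, against 18.3% to 25.3% in the other libraries, and mitochondrial genes took 10.4% and 7.28%, against 0.848% to 5.82%. The part of these shares in the values below was not tested. In bulk RNA, a smaller share of cells that express a gene and less of its RNA per cell cannot be told apart.

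The 2 target genes lay far above the factors that control them. Levels of different genes are compared here as CPM per kilobase of exon. In parental cells *Cd74* was at 1515.4 ± 101.8 CPM per kb (SD, n = 3), which ranked it 28 of the 13904 genes tested, and *H2-Aa* was at 382.0 ± 48.2, which ranked it 133. *Cd74* encodes the invariant chain, the chaperone that fills the MHC-II groove until peptide is loaded, and *H2-Aa* encodes the alpha chain of the I-A molecule. Among the factors, *Creb1* was at 18.6 ± 3.71 CPM per kb, *Nfyb* at 15 ± 1.5, *Ciita* at 14.6 ± 1.57, *Nfya* at 14.2 ± 0.761 and *Nfyc* at 10.7 ± 1.26. These levels were near each other, and the libraries of *Creb1, Nfyb, Ciita* and *Nfya* overlapped. The RFX subunits were lower, with *Rfx5* at 6.23 ± 0.752, *Rfxap* at 5.92 ± 0.545 and *Rfxank* at 1.95 ± 0.258 CPM per kb. Read pairs that overlapped several genes were not counted, and 26.8% of the exonic bases of *Rfx5* are shared with *B230398E01Rik* and 24.5% of those of *Rfxank* with *Nr2c2ap*, so that the levels of these genes are uncertain and may be too low. The counts rest on GRCm38, the C57BL/6J reference and not BALB/c, and the part of strain differences in the level of *H2-Aa* was not tested. *Cd74* was 104.6 ± 15.2 times as high as *Ciita* per kilobase in parental cells.

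**Figure D1:**
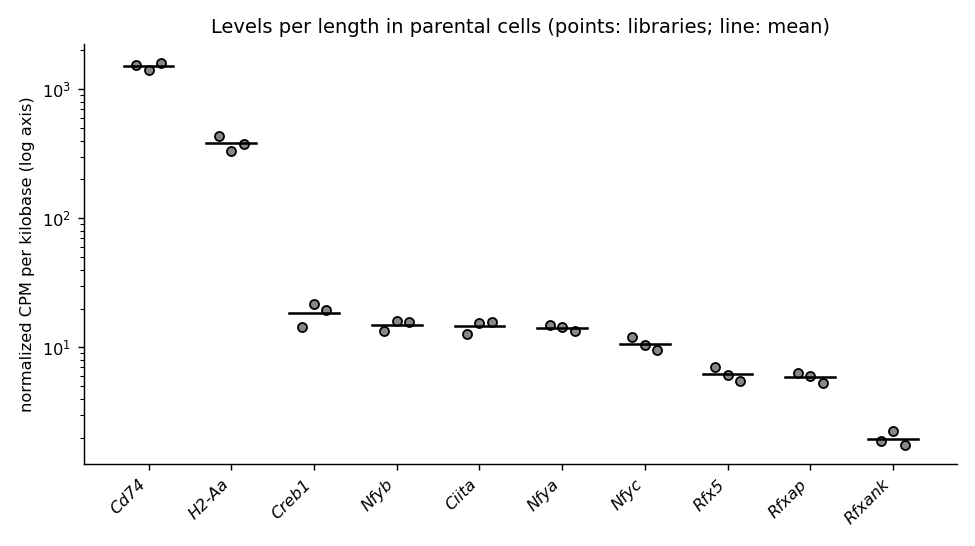
Level of each gene in parental cells, as TMM-normalized CPM per kilobase of exon on a log axis; points are the 3 libraries and the line is their mean. *Cd74* (1515.4) and *H2-Aa* (382.0) stand above the factors, which run from 18.6 for *Creb1* to 1.95 for *Rfxank*.

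None of the 10 genes was significantly changed in a clone compared with parental cells. This holds for all 40 tests of edgeR's quasi-likelihood method, with Benjamini-Hochberg adjustment over 13904 genes and a threshold of 0.05 on the adjusted p. Of all genes tested, 1.22% were called for E7.1 and 0.295% for E7.2, and 0.324% in E6.1 and 1.17% in E6.2, and a count of 0 in 10 is near these shares. An unadjusted p under 0.05 was found in 3 of the 40 tests, for *Nfyc* and *Creb1* in E7.1 and for *Creb1* also in E7.2, where 20% and 13.3% of all genes had one (6.71% in E6.1 and 13.1% in E6.2). DESeq2's Wald test called 1 of the 40, *Nfyc* in E7.1, where it called 8.34% of all genes. In each clone 6 of the 10 genes had a log2 fold change above 0 and 4 below. The median over the 10 genes was 0.16 in E7.1 and 0.14 for E7.2, against -0.02 and 0.00 over all genes tested, and it was 0.03 for E6.1 and 0.13 for E6.2, against 0.00 and 0.06. The 4 comparisons share the parental libraries. Between any 2 of the 5 lines, 0 of 100 tests of the 10 genes passed the threshold (lowest adjusted p = 0.113 from edgeR) and 9 had an unadjusted p under 0.05, against 2.75% and 16.6% of the tests of all genes.

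**Figure D2:**
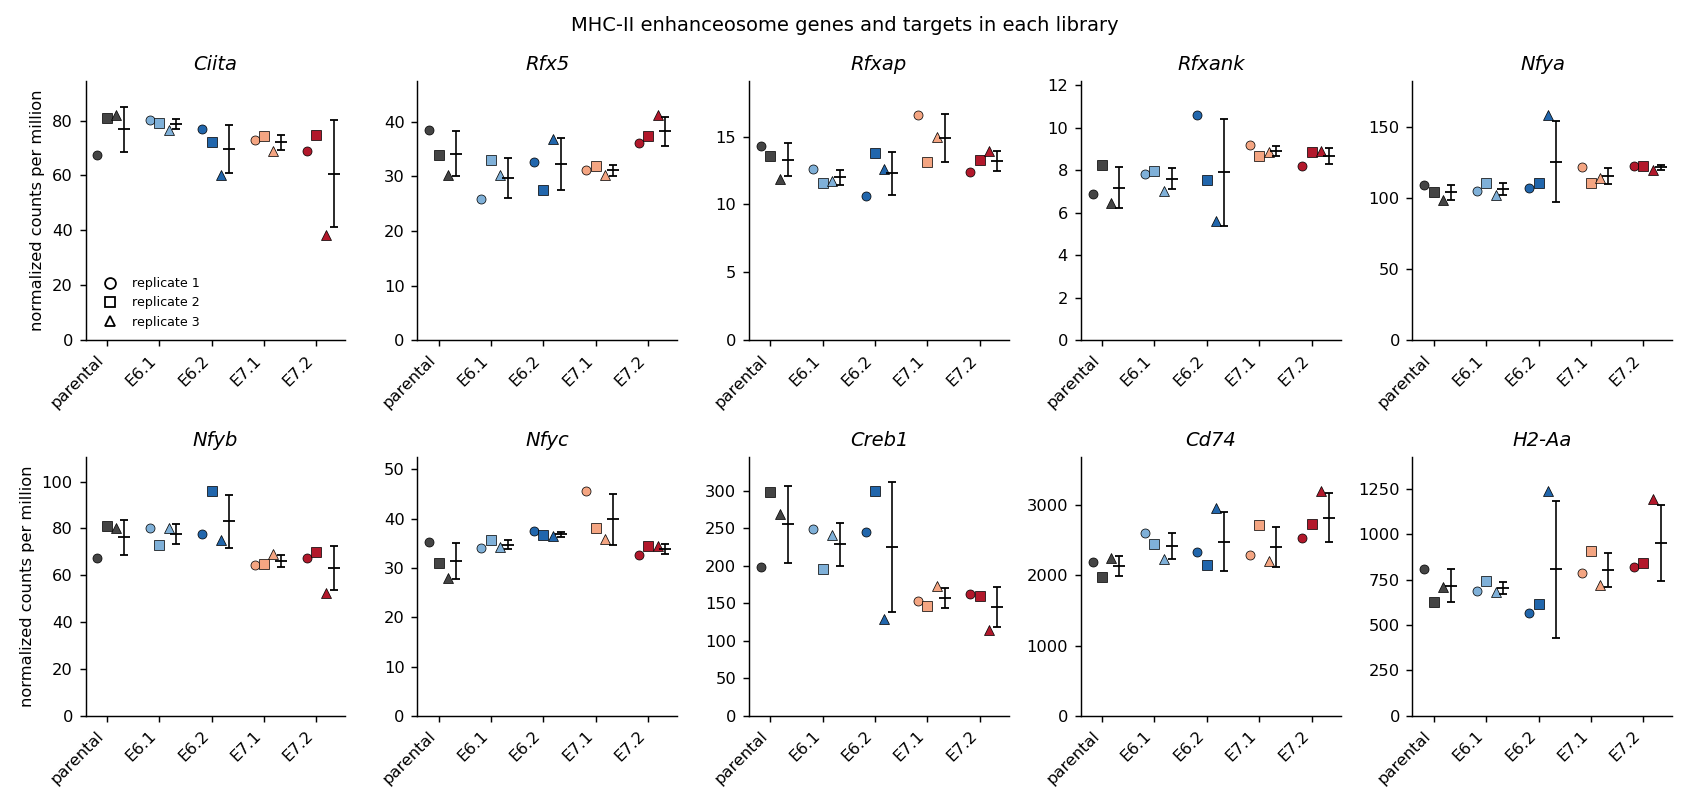
TMM-normalized level of each gene, in CPM, in each of the 15 libraries, by line; circles, squares and triangles are replicates 1, 2 and 3, and the bar beside them is the mean ± SD of 3 libraries. The triangles of E6.2 and E7.2 hold the 2 highest values of *H2-Aa* (1241.1 and 1193.7) and the 2 lowest values of *Ciita* (60.1 and 38.3) and *Creb1* (129.6 and 114.3).

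**Figure D3:**
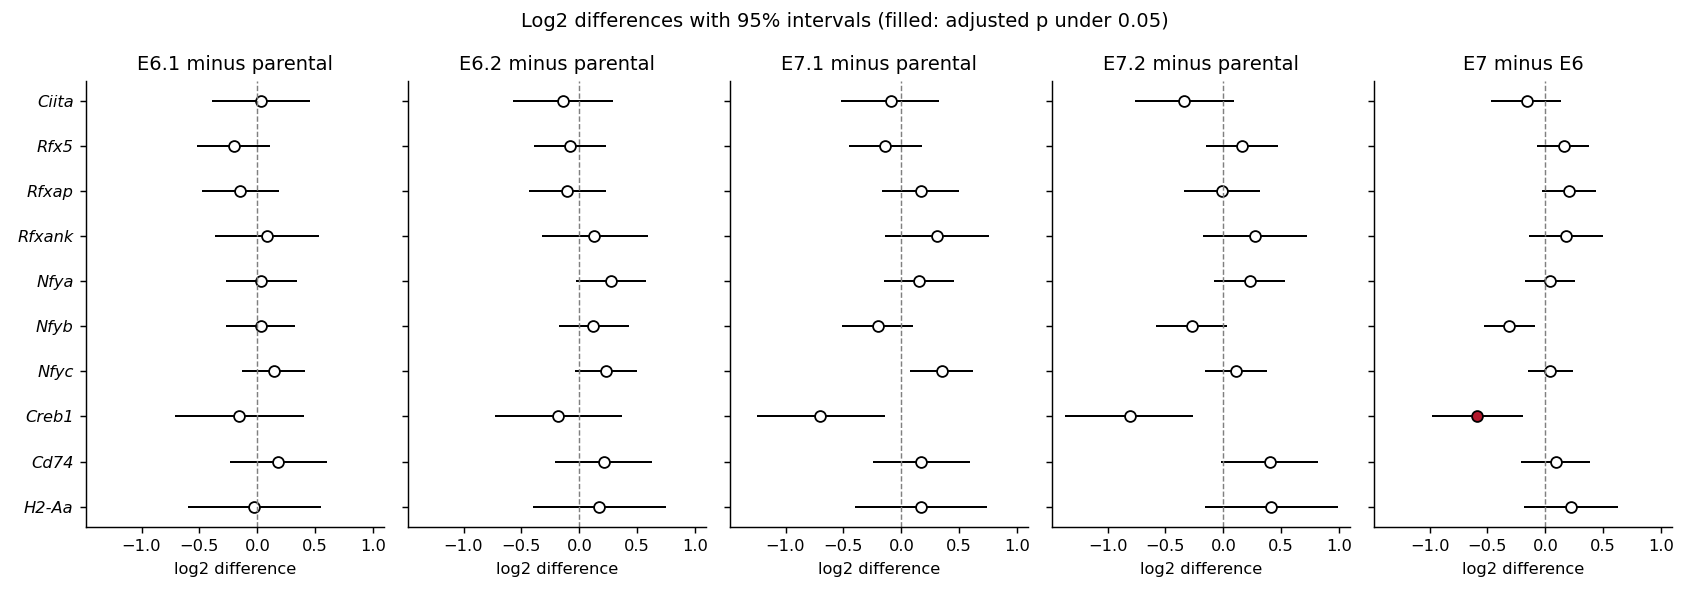
Log2 difference of each gene between each clone and parental cells, and between the E7 and the E6 clones. Lines are 95% intervals computed from the F statistic of edgeR's quasi-likelihood test, and a filled point marks an adjusted p under 0.05. The only filled point is *Creb1* in the E7 against the E6 clones, at -0.59.

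*Ciita* (ENSMUSG00000022504, chromosome 16, 10488178 to 10527564 of GRCm38) encodes the coactivator that is limiting for MHC-II in most cells. It was at 67.3, 81.1 and 82.1 CPM in parental cells, 80.3, 79.2 and 76.6 in E6.1, 76.8, 72.2 and 60.1 in E6.2, 73.0, 74.4 and 69.0 in E7.1, and 69.1, 74.7 and 38.3 in E7.2. Every clone overlapped parental cells, and the value that stood apart was the low one of E7.2 replicate 3. The log2 fold change was lowest in E7.2, at -0.34 (95% interval -0.75 to 0.08), and was -0.09 in E7.1 (-0.51 to 0.32), -0.14 in E6.2 (-0.56 to 0.28) and 0.03 in E6.1 (-0.38 to 0.45), with adjusted p values from 0.452 to 0.995 (edgeR). These intervals do not show that the levels were equal. E7.2 replicate 3 was also the library with the highest mitochondrial share (10.4%). Without E6.2 replicate 3 and E7.2 replicate 3 the log2 fold change in E7.2 was -0.07 and in E6.2 was -0.02. In the order of the means E7.2 was lowest, followed by E6.2, E7.1, parental cells and E6.1, and no neighbours in this order differed beyond their spread.

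The RFX complex consists of RFX5, which holds the DNA-binding domain, the associated protein RFXAP and the ankyrin repeat protein RFXANK, and all 3 are needed for MHC-II expression. *Rfx5* (chromosome 3, 94954075 to 94961561) was at 38.5, 33.9 and 30.3 CPM in parental cells, 25.9, 33.1 and 30.2 in E6.1, 32.6, 27.5 and 36.9 in E6.2, 31.2, 32.0 and 30.2 in E7.1, and 36.2, 37.4 and 41.3 in E7.2. All clones overlapped parental cells, and E7.2 had the highest mean. Its log2 fold changes lay between -0.20 in E6.1 and 0.16 in E7.2. The largest difference between 2 lines was that of E7.2 above E6.1, at 0.37 on the log2 scale (95% interval 0.06 to 0.67, adjusted p = 0.363 from edgeR). Of all genes 0.352% were called between these lines.

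*Rfxap* (chromosome 3, 54803115 to 54807791) was at 14.3, 13.6 and 11.9 CPM in parental cells, 12.6, 11.6 and 11.7 in E6.1, 10.6, 13.8 and 12.6 in E6.2, 16.6, 13.1 and 15 in E7.1, and 12.4, 13.3 and 13.9 in E7.2. No clone was separated from parental cells, and the log2 fold changes ran from -0.15 in E6.1 to 0.17 in E7.1. *Rfxank* (chromosome 8, 70130812 to 70139197) was at 6.86, 8.25 and 6.43 CPM in parental cells, 7.80, 7.95 and 7.03 in E6.1, 10.6, 7.53 and 5.59 in E6.2, 9.16, 8.68 and 8.86 in E7.1, and 8.21, 8.85 and 8.92 in E7.2. Only in E7.1 were all its libraries above all parental libraries, with a log2 fold change of 0.31 (95% interval -0.13 to 0.75, adjusted p = 0.422 from edgeR). *Rfxank* had 186 to 342 counts per library, the fewest of the set. The lowest adjusted p of any RFX subunit in a clone was 0.422, and the *Rfx5* to *Rfxap* ratio per kilobase stayed between 0.862 ± 0.120 (E7.1) and 1.18 ± 0.0311 (E7.2; SD, n = 3).

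NF-Y is a trimer of a sequence-reading subunit, NFYA, with the histone-fold pair NFYB and NFYC. *Nfya* (chromosome 17, 48386885 to 48409906) was at 109.6, 104.5 and 98.5 CPM in parental cells, 105.5, 111.1 and 102.7 in E6.1, 107.5, 111.0 and 158.9 in E6.2, 122.3, 111.0 and 114.1 in E7.1, and 122.5, 123.1 and 120.0 in E7.2. Both E7 clones lay above all parental libraries, by 0.15 for E7.1 (95% interval -0.14 to 0.45) and 0.23 for E7.2 (-0.07 to 0.52) on the log2 scale, and the adjusted p was 0.568 and 0.474 (edgeR). The high value of E6.2 replicate 3 set the mean of E6.2, where the log2 fold change was 0.27 with it and 0.07 without it. *Nfyc* (chromosome 4, 120757438 to 120831572) was at 35.3, 31.0 and 27.9 CPM in parental cells, 34.1, 35.7 and 34.2 in E6.1, 37.5, 36.6 and 36.4 in E6.2, 45.7, 38.1 and 35.9 in E7.1, and 32.7, 34.5 and 34.4 in E7.2. E6.2 and E7.1 lay above all parental libraries. Its largest log2 fold change was 0.35 in E7.1 (95% interval 0.08 to 0.61, adjusted p = 0.135 from edgeR), a call with the Wald test of DESeq2 (adjusted p = 0.0493) and in the fit without parental replicate 1 (0.45, adjusted p = 0.0466 from edgeR), in which 7.11% of all genes were called.

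*Nfyb* (chromosome 10, 82748701 to 82764144) was at 67.4, 81.0 and 80.0 CPM in parental cells, 80.1, 72.9 and 80.4 in E6.1, 77.8, 96.2 and 74.9 in E6.2, 64.6, 65.0 and 69.1 in E7.1, and 67.2, 70.0 and 52.3 in E7.2. The 6 libraries of the E7 clones all lay below the 6 libraries of the E6 clones, while parental cells overlapped both. Among all genes tested 3.55% were separated in this way and 1.75% lay lower in all E7 libraries, and *Nfyb* was the only one of the 10 genes. The log2 difference of the E7 from the E6 clones was -0.31 (95% interval -0.52 to -0.10), which just missed the threshold (adjusted p = 0.0507 from edgeR). It was called in 6 of 24 alternative settings, with adjusted p values from 0.017 to 0.156 over all of them. Of all genes, the Wald test called 19.3%, the likelihood ratio test 16.2%, the fit with an offset for exonic length 12.4% and the fit without E6.2 replicate 3 27.3%, all of which called *Nfyb*. Per kilobase, the *Nfya* to *Nfyb* ratio was 0.957 ± 0.147 for parental cells, 0.952 ± 0.0920 for E6.1, 1.08 ± 0.350 for E6.2, 1.21 ± 0.0876 for E7.1 and 1.36 ± 0.203 for E7.2 (SD, n = 3). The ratio of E6.2 replicate 3, 1.47, lay within the range of the E7 clones, and the other E6.2 libraries did not.

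*Creb1* (ENSMUSG00000025958, chromosome 1, 64532645 to 64604548) had the largest differences of the 10 genes, with lower levels in the E7 clones. It encodes a leucine zipper factor of the cyclic AMP response that also occupies the X2 box. It was at 198.8, 298.1 and 268.2 CPM in parental cells, 249.2, 196.0 and 240.9 in E6.1, 244.8, 300 and 129.6 in E6.2, 153.3, 146.0 and 172.3 in E7.1, and 161.9, 159.2 and 114.3 in E7.2. Both E7 clones lay below all parental libraries, and the E6 clones overlapped them. E6.2 replicate 3 was the exception among the E6 libraries, since it alone lay within the range of the E7 libraries. Against parental cells the log2 fold change was -0.81 in E7.2 (95% interval -1.36 to -0.27, adjusted p = 0.238 from edgeR) and -0.70 in E7.1 (-1.24 to -0.15, adjusted p = 0.145), and it was -0.16 in E6.1 and -0.18 in E6.2. All libraries of 4 of the 10 genes were on one side of parental cells in E7.1 (*Rfxank, Nfya, Nfyc* and *Creb1*) and of 4 in E7.2 (*Nfya, Creb1, Cd74* and *H2-Aa*), where 32.0% and 24.2% of all genes were. In E6.2 this was so of *Nfyc* alone and in E6.1 of none, against 14.7% and 22.5% of all genes.

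Between the E7 and the E6 clones *Creb1* was the only one of the 10 genes that passed the threshold, in a comparison in which 12.1% of all genes were called and 5.85% were called lower. A count of 1 in 10 is near that background. The E7 clones had a mean of 151.1 CPM and the E6 clones of 226.7 CPM, a log2 difference of -0.59 (standard error 0.18, 95% interval -0.97 to -0.20, adjusted p = 0.0483 from edgeR). The call depended on the setting. It was kept in 8 of 24 alternatives and was lost with DESeq2's size factors (adjusted p = 0.0510), with only the 12 libraries of the clones (adjusted p = 0.0643) and in 12 of the 15 fits without 1 library, while the log2 difference stayed between -0.72 and -0.45. Leaving out E6.2 replicate 3 gave -0.72 (adjusted p = 0.00341) and also called *Creb1* against parental cells in E7.2 (-0.81, adjusted p = 0.0444, with 1.39% of all genes called) and in E7.1 (-0.70, adjusted p = 0.0372, with 6.74%). Leaving out E6.2 replicate 1 or replicate 2 gave adjusted p values of 0.103 and 0.104.

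*Creb1* has 13.7 kb of exon, the longest of the set, and long genes were lower in the 2 libraries that stood apart. The 639 tested genes with more than 10000 exonic bases had a median log2 difference of -0.10 between the E7 and the E6 clones, against -0.03 over all genes, and 10.6% of them lay at or below *Creb1*. With an offset for exonic length, an alternative chosen after the data were seen, the difference of *Creb1* was -0.49 (adjusted p = 0.0547 from edgeR), and it was -0.58 in E7.2 and -0.53 in E7.1 against parental cells. Without both libraries that stood apart it was -0.64 (adjusted p = 0.00245). That fit called 3 of the 10 genes, *Creb1, Nfyb* and *H2-Aa*, in a comparison in which it called 35.1% of all genes. Among the 40 tested genes nearest to *Creb1* on chromosome 1, the median log2 difference was -0.10, and 7 were lower than *Creb1*.

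**Figure D4:**
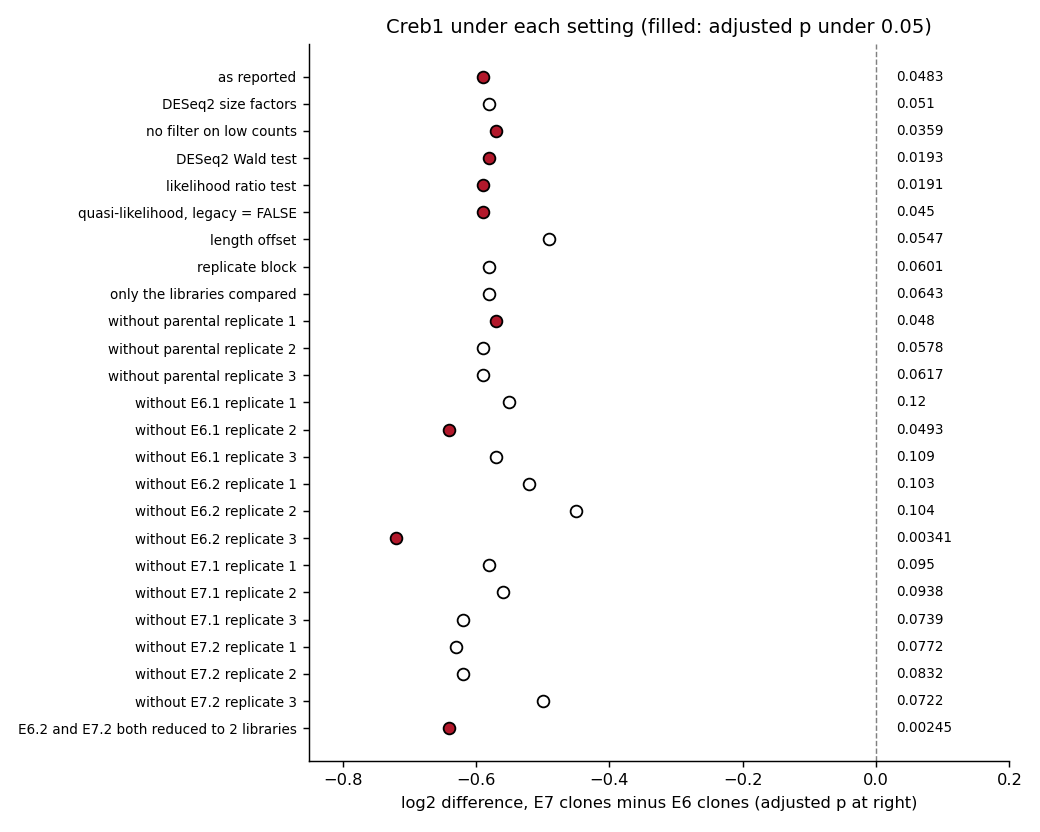
Log2 difference of *Creb1* between the E7 and the E6 clones as reported and under 24 alternative settings, with the adjusted p at the right; filled points have an adjusted p under 0.05. All values lie between -0.72 and -0.45, and 8 of the 24 alternatives keep the call.

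The target genes did not pass the threshold in any comparison with parental cells, although the libraries of E7.2 lay above them. *Cd74* (ENSMUSG00000024610, chromosome 18, 60803848 to 60812646) was at 2184.6, 1975.4 and 2250.2 CPM in parental cells, 2595.4, 2437.7 and 2227.7 in E6.1, 2325.4, 2149.7 and 2949.4 in E6.2, 2282.7, 2719.9 and 2195.4 in E7.1, and 2526.8, 2729.9 and 3204.5 in E7.2. Parental cells had the lowest mean, and E7.2 was the only clone whose libraries were all above them. The log2 fold change was 0.40 in E7.2 (95% interval -0.01 to 0.81), 0.21 in E6.2 (-0.20 to 0.62), 0.18 in E6.1 (-0.23 to 0.59) and 0.17 in E7.1 (-0.24 to 0.58), with a lowest adjusted p of 0.383 (edgeR). It stayed above 0 under all 24 alternatives in all 4 clones, in which the parental libraries are shared.

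*H2-Aa* (ENSMUSG00000036594, chromosome 17, 34282744 to 34287827) was at 808.0, 627.4 and 712.1 CPM in parental cells, 684.9, 741.2 and 682.5 in E6.1, 565.8, 614.1 and 1241.1 in E6.2, 788.3, 906.2 and 720.5 in E7.1, and 822.3, 844.4 and 1193.7 in E7.2. The 2 highest values belonged to the libraries that stood apart. The other E6.2 libraries were the lowest of all 15, and E7.2 lay above parental cells also without its highest library. The log2 fold change was 0.41 in E7.2 (95% interval -0.15 to 0.98), 0.17 in E7.1 (-0.39 to 0.73), 0.17 in E6.2 (-0.39 to 0.74) and -0.03 in E6.1 (-0.59 to 0.54), and the lowest adjusted p was 0.486 (edgeR). In E6.2 the sign rested on 1 library, as the value without replicate 3 was -0.28. Between the E7 and the E6 clones it was 0.22 (adjusted p = 0.454 from edgeR), and it passed the threshold without E6.2 replicate 3 (0.44, adjusted p = 0.0227), where 27.3% of all genes were called, and without both libraries that stood apart (0.35, adjusted p = 0.019).

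**Figure D5:**
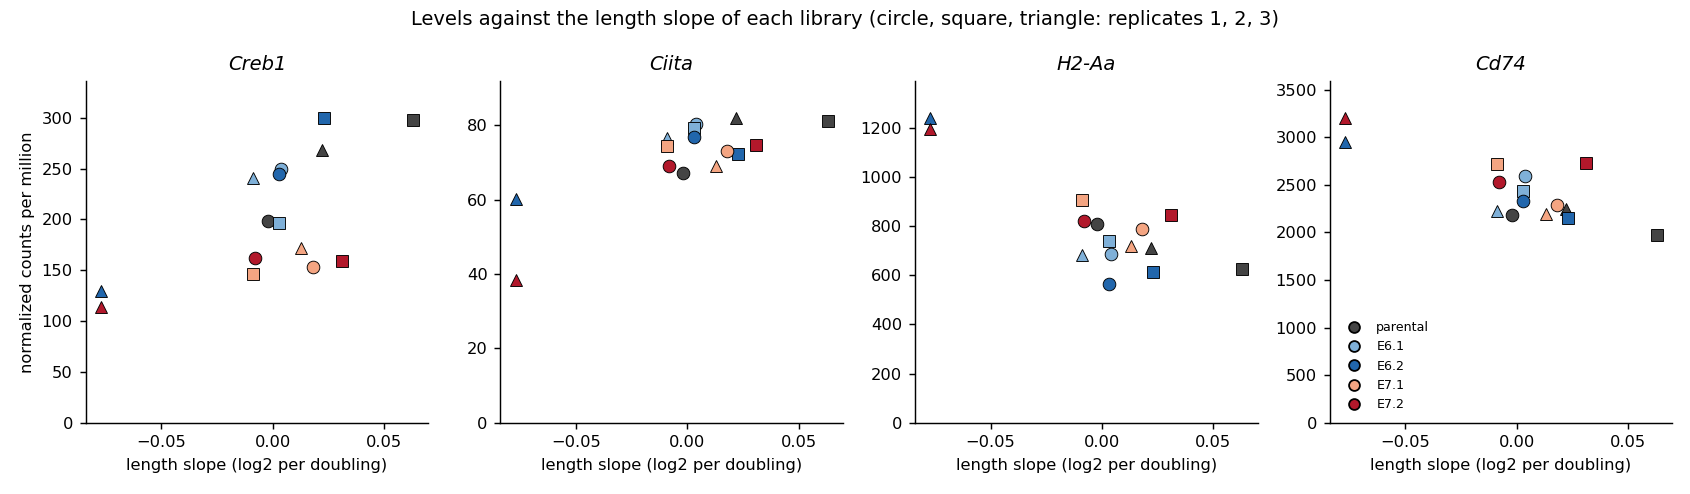
Level of 4 genes in each library (TMM-normalized CPM) against the slope of that library's log2 levels, relative to the mean of all libraries, on log2 exonic length; colours are lines and circles, squares and triangles are replicates 1, 2 and 3. The 2 points at -0.077 are the third replicates of E6.2 and E7.2, with the lowest *Creb1* and *Ciita* and the highest *H2-Aa* and *Cd74*.

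Levels of the 2 targets followed each other across libraries, and the level of *Ciita* did not rise with them. Over the 15 libraries, which are 3 of each line and so not independent, log2 CPM of *Cd74* and *H2-Aa* correlated with r = 0.822 (Spearman's rho 0.718), and with r = 0.602 over the 13 libraries without the 2 that stood apart. *Ciita* and *H2-Aa* correlated with r = -0.741 (rho -0.614), which was -0.401 over 13 libraries, and *Ciita* and *Cd74* with r = -0.656 (rho -0.268), which was -0.00231 over 13 libraries. The inverse relation of *Ciita* to *Cd74* thus rested on these 2 libraries, and that to *H2-Aa* was weaker without them. *Creb1* and *H2-Aa* correlated with r = -0.881 (rho -0.896), and with -0.844 over 13 libraries. *Creb1* and *Nfyb* correlated with r = 0.848 (rho 0.836), and with 0.915 over 13 libraries. Within lines, over the 15 libraries, r was 0.851 for *Cd74* and *H2-Aa*, -0.933 for *Creb1* and *H2-Aa* and 0.819 for *Creb1* and *Nfyb*. It was -0.661 for *Ciita* and *H2-Aa* and -0.534 for *Ciita* and *Cd74*. These relations were thus also present among libraries of the same line and need not reflect differences between the lines. The pairs were picked from all pairs of the set, and r over all genes was not set beside them. *Creb1* and *Nfyb* have 13.7 and 5.07 kb of exon and *Cd74* and *H2-Aa* have 1.41 and 1.87 kb, and the part of length in these relations was not tested. The ratio of *Cd74* to *H2-Aa* per kilobase was 3.99 ± 0.346 for parental cells, 4.58 ± 0.394 for E6.1, 4.42 ± 1.17 for E6.2, 3.96 ± 0.103 for E7.1 and 3.98 ± 0.375 for E7.2 (SD, n = 3).

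The profiles most like those of the coactivator and the targets were found by Pearson's correlation over the 15 libraries among all genes tested. For *Ciita* they were *Btnl2* (r = 0.950), *Lrr1* (0.947) and *Kntc1* (0.936), which over 13 libraries were at 0.727, 0.641 and 0.422. For *Cd74* they were *Ubl5* (0.928), *Rpl37a* (0.913) and *Tsta3* (0.906), with 0.897, 0.813 and 0.827 over 13 libraries. For *H2-Aa* they were *Tspan14* (0.977), *Lasp1* (0.964) and *Clk3* (0.958), with 0.934, 0.892 and 0.877. No other MHC-II gene was among them.

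The other genes of MHC-II and of peptide loading were not called in any clone, where 0.295% to 1.22% of all genes were. Of the 16 genes listed, 15 were tested, and their median log2 fold change was -0.05 in E6.1 and in E7.1, 0.05 in E6.2 and 0.16 in E7.2, against -0.02 to 0.06 over all genes. *H2-Ab1*, the beta chain that pairs with the *H2-Aa* product, was at 306.3 ± 49.6 CPM in parental cells and at 292.6 ± 24.7, 319.5 ± 133.5, 377.7 ± 31.3 and 365.0 ± 24.5 CPM in the clones, in the order of their names (SD, n = 3). *Ctsl*, a protease of the endosome, had the highest mean log2 fold change over the 4 clones (0.69) and *Ifi30*, a lysosomal thiol reductase, the lowest (-0.33). *H2-DMb2*, a chain of the molecule that exchanges the *Cd74* fragment for peptide, was higher in the E7 than in the E6 clones. Its mean in parental cells, 54.5 ± 7.33 CPM, lay between those of the E7 and the E6 clones. It was at 74.6 ± 10.9 CPM in E7.1 and 64.4 ± 6.02 CPM in E7.2 against 35.3 ± 9.48 CPM in E6.2 and 47.3 ± 8.55 CPM in E6.1 (SD, n = 3). The log2 difference of the E7 from the E6 clones was 0.76 (standard error 0.14, adjusted p = 0.00654 from edgeR), and *H2-DMb2* was called in all 24 alternatives. It was the 1 gene of this list called there, where 6.21% of all genes were called higher.

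Genes known to act upstream of *Ciita* differed in part. Of 15 such genes, 0 were called in E6.1 and 2 were called lower in E6.2, where 1.01% of all genes were, *Irf4* and *Prdm1*, which act together in plasma cell formation and of which *Prdm1* encodes a repressor of *Ciita*. In either E7 clone the 1 gene called was *Foxp1* itself, the targeted gene. Of all genes 1.22% were called in E7.1, 0.295% in E7.2 and 0.324% in E6.1. In E6.2 *Irf4* fell from 44.2 ± 5.98 CPM in parental cells to 14.2 ± 3.73 (log2 fold change -1.64, adjusted p = 0.00333 from edgeR), and *Prdm1* from 11.3 ± 1.78 to 1.89 ± 0.317 (-2.58, adjusted p = 0.0108). *Ciita* in E6.2, at 69.7 ± 8.65 CPM, overlapped parental cells. In the E7 against the E6 clones 5 of the 15 were higher, *Irf4* (1.02), *Tcf3* (0.47), *Prdm1* (1.33), *Bcl6* (0.52) and *Zbtb32* (1.23), and *Foxp1* was lower (-1.09), as log2 differences with adjusted p values from 0.000609 to 0.0465 (edgeR). Of all genes 6.21% were called higher and 5.85% lower there. The list's median there was 0.02, against -0.03 over all genes. For *Irf4, Prdm1* and *Zbtb32* 1 E7 clone was close to E6.1 in mean CPM (± SD, n = 3). *Irf4* had 35.0 ± 6.87 (E7.1) against 34.2 ± 7.28 (E6.1), and *Prdm1* 6.56 ± 2.9 against 6.14 ± 1.7. *Zbtb32* had 27.4 ± 13.9 (E7.2) against 24.2 ± 8.45 (E6.1), with 51.5 ± 9.82 for E7.1 and 10.6 ± 0.804 for E6.2. The E7 means of *Tcf3* (104.9 and 103.2) exceeded its E6 means (74.0 and 76.3), as did those of *Bcl6* (361.3 and 302.1 against 251.7 and 211.7). Parental cells were at 108.0 ± 14.2 CPM for *Tcf3*, near the E7 means, at 283.2 ± 65.2 for *Bcl6* and at 24.3 ± 11.7 for *Zbtb32*. The E7 means of *Prdm1* (6.56 and 11.2) did not exceed the parental 11.3, and those of *Irf4* (35.0 and 57.4) lay on either side of 44.2. Against parental cells 0 of the 15 were called higher in E7.1 or E7.2. *Spi1*, a factor of myeloid and B cells, had means from 25.1 CPM in parental cells to 30.0 CPM in E6.2.

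Cofactors on which CIITA draws were not called in any clone, where 0.295% to 1.22% of all genes were. Between the E7 and the E6 clones 4 of the 16 were called, 2 higher and 2 lower, where 6.21% of all genes were called higher and 5.85% lower. *Hdac2*, a histone deacetylase, was higher (0.43) and so was *Pou2f2*, an octamer factor of B cells (1.35), while *Ep300*, a histone acetyltransferase (-0.42), and *Ccnt1*, the cyclin of the elongation kinase P-TEFb (-0.36), were lower, with adjusted p values from 0.00781 to 0.0482 (edgeR). *Pou2f2* was called in all 24 alternatives and *Ep300* in 7. The highest and lowest mean log2 fold changes over the 4 clones in this list were those of *Carm1*, an arginine methyltransferase (0.26), and *Pou2f1* (-0.57).

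Relatives of the members and genes of MHC-I and its peptide loading gave no calls. Of 10 related factors 7 were tested, since *Rfx4, Rfx6* and *Rfx8* had almost no counts, and 0 were called in a clone or between the E7 and the E6 clones, where 0.295% to 1.22% and 12.1% of all genes were. *Atf1*, the closest relative of *Creb1* that is widely expressed, was at 122.5 ± 17.3 CPM in parental cells and had log2 fold changes of -0.36 in E7.2 and -0.26 in E7.1 (lowest adjusted p = 0.345 from edgeR). *Crem* (mean over the 4 clones 0.27) and *Rfx3* (-0.37) marked the ends of the list. Among 6 genes of MHC-I and its peptide loading, 0 were called in these comparisons, with the same shares over all genes. Their means over the clones ran from -0.19 for *B2m* to 0.05 for *H2-D1*.

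Known targets of NF-Y and CREB1 were counted in the same way. None of 10 NF-Y target genes, most of them of the cell cycle, was called in any comparison, where the share of all genes called was 0.295% to 1.22% for the clones and 12.1% for the E7 against the E6 clones. Their median log2 fold change was 0.56 for E7.1 and 0.10 for E7.2, -0.04 for E6.1 and -0.19 for E6.2, and 0.37 between the E7 and the E6 clones. Over all genes it was -0.02, 0.00, 0.00, 0.06 and -0.03. *Hspa5*, a chaperone of the endoplasmic reticulum, was at the top of the means (0.42) and *Top2a* at the bottom (-0.12). Libraries of some lines differed widely (SD, n = 3). *Top2a* was at 828.2 ± 503.0 CPM in E7.2 against 1070.6 ± 29.1 in E7.1, and *Ccnb1* was at 214.0 ± 89.7 in parental cells. Of 9 CREB1 target genes tested 0 were called in a clone, and *Fosb*, an immediate-early factor, was lower in the E7 than in the E6 clones (-2.14, adjusted p = 0.0479 from edgeR). This count of 1 in 9 is near the 12.1% of all genes called there, of which 5.85% were lower. *Fosb* was called in 10 of 24 alternatives and was low throughout, at 1.08 ± 0.508 CPM in parental cells and 3.04 ± 4.02 CPM in E6.2. The ends of this list were *Sik1* (0.73) and *Nr4a2* (-0.52).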

How the data were processed

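RNA was measured in 15 libraries, 3 of each of 5 lines, grouped by the sample titles. The authors aligned the reads with HISAT, named in the submitters' processing notes, and deposited raw counts of read pairs per gene, made with featureCounts 1.5.0 per the file headers, without regard to strand. The annotation is of GRCm38 and lists 92 ERCC spike-ins, which had a total count of 0. Of 41388 genes 40254 were matched to a symbol. Total counts were 26328054 to 39181530 per library (median 35586010), and 3 counts correspond to 0.0751 to 0.118 CPM (counting error only). No 2 libraries were copies.

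Here counts were filtered with filterByExpr, which kept 13904 genes and all 10 members, normalized with TMM and tested with edgeR 4.0.16 (R 4.3.3; glmQLFit and glmQLFTest, defaults) in 1 fit of all libraries with line as the factor, adjusted by Benjamini-Hochberg within each contrast. The scripts were tested on simulated data. P values measure the spread between passages of a line. Shared exonic bases were counted from the coordinates in the deposited tables. The members and lists were chosen with earlier results of these data known. Besides the members, genes named are *Foxp1*, list genes that passed a test or had the highest or lowest mean log2 fold change over the clones, and the 3 profiles most like *Ciita, Cd74* and *H2-Aa*, while *H2-Ab1, Spi1* and *Atf1* were chosen after their values were seen. Alternatives were DESeq2's size factors, no filter, DESeq2 1.42.0, edgeR's likelihood ratio test and newer method (legacy = FALSE), a replicate block, only the libraries compared, an offset for exonic length (loess, span 0.5), each library left out, and the third libraries of E6.2 and E7.2 left out together.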

Additional observations from a re-analysis of the deposited data

Results flagged for a closer look

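Genes are given here because their clone effects differed between the E7 and the E6 clones by edgeR's test of the difference, as log2 differences. Of the 10 enhanceosome and target genes this was *Creb1* (-0.59). Of the listed genes around them these were *H2-DMb2* (0.76), *Irf4* (1.02), *Tcf3* (0.47), *Prdm1* (1.33), *Bcl6* (0.52), *Zbtb32* (1.23), *Foxp1* (-1.09), *Ep300* (-0.42), *Ccnt1* (-0.36), *Hdac2* (0.43), *Pou2f2* (1.35) and *Fosb* (-2.14). In this comparison 12.1% of all genes were called. The p values measure the spread between passages and not that between the 2 clones of an exon, so a call can rest on 1 clone. Between E6.2 and E6.1 themselves 1.24% of all genes were called, and between E7.2 and E7.1 0.59%. Between 1 E7 and 1 E6 clone the share was 0.352% for E7.2 and E6.1 and 2.24% for E7.2 and E6.2. It was 3.24% for E7.1 and E6.1 and 16.9% for E7.1 and E6.2. These pairs hold fewer libraries than the comparison of the E7 with the E6 clones. Under the 24 alternatives *H2-DMb2, Irf4, Foxp1* and *Pou2f2* were called in 24, *Zbtb32* in 22, *Prdm1* in 21, *Hdac2* in 17, *Tcf3* in 15, *Bcl6* in 13, *Fosb* in 10, *Creb1* and *Ccnt1* in 8 and *Ep300* in 7.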

How the results depend on the processing

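For the 10 genes in the 4 clones and in the E7 against the E6 clones, 1151 of 1200 values under an alternative kept their direction and their side of the threshold, 16 lost and 13 gained a call, and 20 changed sign, none of them above 0.28 in size. No gene was called against parental cells in E6.1 or E6.2 under any of 24 alternatives. The number called in E7.1 was 1 with DESeq2's Wald test (*Nfyc*), where 8.34% of all genes were called. It was 1 without replicate 3 of both E6.2 and E7.2 (*Creb1*), where 15.9% of all genes were called. It was 0 to 1 when single libraries were left out, as in E7.2. Between the E7 and the E6 clones the number was 0 with DESeq2's size factors, with a replicate block and with only the libraries compared. It was 2 with DESeq2's Wald test, the likelihood ratio test and legacy = FALSE, where 19.3%, 16.2% and 13% of all genes were called. It was 3 without replicate 3 of both clones, where 35.1% of all genes were called. When single libraries were left out it was 0 to 3 (3 without E6.2 replicate 3, where 27.3% of all genes were called). Counts of 2 or 3 in 10 are near these shares.

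Changes of sign with other settings were those of *Rfxap* in E7.2 (0.01 with DESeq2's size factors and Wald test) and, without replicate 3 of both E6.2 and E7.2, of *Creb1* (0.11) and *H2-Aa* (-0.26) in E6.2. When single libraries were left out the log2 fold changes that crossed 0 ranged, in E6.1, from -0.06 to 0.08 for *Ciita*, -0.01 to 0.07 for *Nfya*, -0.05 to 0.08 for *Nfyb* and -0.11 to 0.07 for *H2-Aa*. In E6.2 they ranged from -0.19 to 0.02 for *Rfx5*, -0.14 to 0.33 for *Rfxank*, -0.45 to 0.10 for *Creb1* and -0.28 to 0.36 for *H2-Aa*. In E7.2 *Rfxap* ranged from -0.08 to 0.07, and between the E7 and the E6 clones *Nfya* from 0.00 to 0.14 and *Nfyc* from -0.01 to 0.08. The cause was not tested.

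The main fit did not treat libraries with the same replicate number as pairs, and the correlations here do not settle whether the numbers pair them. Deviations from the line mean of libraries with the same number correlated with r over 0.1 in 11 of 30 pairs (range -0.124 to 0.426). The highest value was that of the third replicates of E6.2 and E7.2, which stood apart. For libraries with different numbers r ranged from -0.399 to 0.326. The replicate block gave *Creb1* a log2 difference of -0.58 (adjusted p = 0.0601 from edgeR). The depth limits *Rfxank* most, at 186 to 342 counts per library.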
